A study of Mus musculus with 8 samples.

Results

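The 10 genes described here, known for their expression in plasmacytoid dendritic cells (pDCs), were Siglech, Bst2, Itgax, Ly6c2, Cox6a2, Pacsin1, Lair1, Runx2, Zeb2 and Bcl11a, and they were followed through early B-cell development in mouse bone marrow. The genes were chosen by name, with earlier results of these data known, and all 10 were found among the 27179 Entrez gene identifiers of the count table. RNA-seq had been carried out on 4 groups of sorted cells with 2 biological replicates each. Pre-proB, proB and preB cells came from Ergfl/fl mice, which carry the conditional Erg allele without Cre, and served as controls. A further group of pre-proB cells came from Rag1CreT/+;ErgΔ/Δ mice, in which the Rag1Cre transgene deletes the ETS transcription factor Erg from the common lymphoid progenitor onward, and these cells are called Erg-deficient below. Both genotypes derive from floxed Erg alleles and only the Erg-deficient group carries Cre, and a group with Cre alone is not among the samples analysed here. Mice were 7 to 10 weeks old. Per the study's methods, all populations were taken from B220+ cells negative for IgM, IgD, NK1.1 and CD11c, and were then separated by CD43 and CD24: pre-proB cells as CD43+ CD24-, proB cells as CD43+ CD24+ and preB cells as CD43- CD24+.

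Plasmacytoid dendritic cells are rare cells of the bone marrow, blood and lymphoid organs that detect viral RNA and DNA in endosomes and respond with large amounts of type I interferon. In the mouse they carry B220, a form of the CD45 antigen that B-lineage cells also carry, and several proteins are used to tell them from B cells. Siglech (a sialic acid-binding lectin that signals through an adaptor), Bst2 (tetherin, an interferon-induced membrane protein that holds budding virus at the cell surface and is the PDCA-1 antigen), Itgax (the CD11c integrin chain), Ly6c2 (a lipid-anchored surface antigen) and Lair1 (an inhibitory receptor for collagen) are on the cell surface. Pacsin1 (a membrane-bending protein of vesicle transport, best known in neurons) and Cox6a2 (a subunit of cytochrome c oxidase, best known in heart and skeletal muscle) act inside the cell. Runx2 (a Runt-domain factor best known in bone), Zeb2 (a zinc finger factor that binds E-boxes) and Bcl11a (a zinc finger factor needed by both pDCs and B cells) control transcription.

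The main pattern was one of stage. In control pre-proB cells 8 of the 10 genes were at high levels and stood at between 1.12% and 3.11% of those levels in proB cells, whereas Bcl11a stood at 31.5% and Zeb2 at 66.2%. From proB to preB cells 8 genes fell further, Zeb2 rose, and Cox6a2 did not pass the test. Between control and Erg-deficient pre-proB cells none of the 10 genes passed the test, while B-lineage genes such as Ebf1 and Pax5 were nearly lost from the Erg-deficient cells. RNA from bulk sorted cells cannot tell fewer cells of a type from less RNA per cell, and this holds for every difference below.

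Depth and labels were examined first. Libraries held between 15565381 and 18457632 counts, so that 3 counts corresponded to at most 0.194 CPM (counts scaled to a library size of 1000000, with trimmed mean of M-values factors over the 8 libraries). Erg itself was at 69.1 and 25.3 CPM in the control pre-proB libraries and at 2.50 and 2.58 CPM in the Erg-deficient ones. The change was -4.23 on the log2 scale (SE 0.547, edgeR quasi-likelihood adjusted p = 0.025). The sorted stages carried their markers: Cd79a, a signalling chain of the B-cell receptor, was at 784 and 790 CPM in proB cells and at 1246 and 1396 CPM in preB cells, while Vpreb1, part of the surrogate light chain, was at 436 and 404 CPM in proB cells. Xist, expressed from the inactive X chromosome, was at 450 CPM or more and the Y-linked Ddx3y at 84.6 CPM or more in every library, so transcripts of both sexes were present in each, whereas the study's methods describe sorting from 2 mice of each genotype and mention no pooling. The control proB libraries differed in neutrophil genes, with a summed level over 7 genes of 133 and 362 CPM.

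To show where these genes are read from, the windows around the annotated RefSeq transcription starts (GRCm38.p6, 250 bases before to 50 after the start, 300 in all) were searched. Windows were held for 9 of the 10 genes. Those of 4 genes are printed: the most abundant surface marker genes (Siglech, Bst2), the gene for the integrin that the sorting gate used (Itgax) and the regulator with the highest level per length in pre-proB cells (Runx2). Capitals mark matches on either strand to the E-box letters CAGGTG or CAGCTG, which E proteins such as Tcf4 can bind. They also mark the Runx core TGTGGT and GAAA, any 2 bases, GAAA (GAAA repeat), the core of the interferon-stimulated response element. The motifs were picked with the sequences and earlier results in view.
Siglech, chr7:55767934-55768233, plus strand: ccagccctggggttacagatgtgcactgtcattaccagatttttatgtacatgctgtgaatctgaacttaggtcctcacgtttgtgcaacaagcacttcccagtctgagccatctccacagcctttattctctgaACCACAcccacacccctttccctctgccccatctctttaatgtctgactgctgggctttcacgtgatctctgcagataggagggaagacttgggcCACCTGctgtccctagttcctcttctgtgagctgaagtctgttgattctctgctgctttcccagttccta
Itgax, chr7:128129300-128129599, plus strand: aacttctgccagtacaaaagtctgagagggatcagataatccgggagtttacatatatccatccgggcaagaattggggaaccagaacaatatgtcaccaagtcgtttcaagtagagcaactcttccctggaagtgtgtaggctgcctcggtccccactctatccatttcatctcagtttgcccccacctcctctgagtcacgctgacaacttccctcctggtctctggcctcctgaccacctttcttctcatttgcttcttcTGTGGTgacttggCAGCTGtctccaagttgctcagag
Bst2, chr8:71537423-71537722, minus strand: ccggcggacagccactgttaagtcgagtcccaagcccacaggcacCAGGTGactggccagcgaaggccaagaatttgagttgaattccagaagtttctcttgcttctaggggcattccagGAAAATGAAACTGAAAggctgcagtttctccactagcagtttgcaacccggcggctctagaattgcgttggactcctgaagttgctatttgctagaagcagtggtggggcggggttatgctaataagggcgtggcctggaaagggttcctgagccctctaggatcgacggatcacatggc
Runx2, chr17:44814578-44814877, minus strand: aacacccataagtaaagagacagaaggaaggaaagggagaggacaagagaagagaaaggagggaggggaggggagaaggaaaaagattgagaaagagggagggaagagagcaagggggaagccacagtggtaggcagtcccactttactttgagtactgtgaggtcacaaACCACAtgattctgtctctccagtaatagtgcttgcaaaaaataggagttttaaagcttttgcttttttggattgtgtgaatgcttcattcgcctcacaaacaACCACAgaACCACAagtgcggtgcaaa
Counted from the transcription start, the Siglech window held a Runx core at -115 and an E-box at -20. The Itgax window held a Runx core at 14 and an E-box at 27, both after the start. The Bst2 window held an E-box at -205 and a pair of overlapping GAAA repeats at -130 and -124. The Runx2 window held 3 Runx cores, at -80, 24 and 32. An E-box of either kind was present in 4 of the 9 genes' windows (Siglech, Bst2, Itgax, Ly6c2), against 35.9% of the 27025 genes with a window. A Runx core was present in 5 of the 9 (Siglech, Itgax, Ly6c2, Pacsin1, Runx2), against 18.9% of genes, and a GAAA repeat in 1 of the 9 (Bst2), against 3.99%. The windows of Lair1, Zeb2 and Bcl11a held none of these letters. A match of letters is a description of the sequence and does not show that a factor binds there.

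The surface genes are described first, with levels in CPM for each library. Siglech (chromosome 7, 55768154 to 55779448, plus strand of GRCm38) was at 3856 and 3825 CPM in control pre-proB cells and at 3953 and 4507 CPM in Erg-deficient pre-proB cells. It was at 46.5 and 56.5 CPM in proB cells and at 11.2 and 11.5 CPM in preB cells. The pre-proB libraries of both genotypes were thus far above the others, and every library of a later stage lay below every library of the stage before it. In controls, the log2 fold change from pre-proB to proB cells was -6.18 (SE 0.118, edgeR adjusted p = 4.35e-09) and that from proB to preB cells was -2.17 (SE 0.117, edgeR adjusted p = 4.33e-06), which left 0.296% of the pre-proB level.

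Bst2 (chromosome 8, 71534255 to 71537472, minus strand) was at 1332 and 1449 CPM in control and at 1538 and 1604 CPM in Erg-deficient pre-proB cells. It was at 39.3 and 47.0 CPM in proB cells and at 16.7 and 22.5 CPM in preB cells, so the stages did not overlap. Its decline was the least steep among the 5 surface genes, with a log2 fold change of -4.97 from pre-proB to proB cells (95% interval -5.32 to -4.63) and of -1.13 from proB to preB cells (-1.47 to -0.79). The first of these intervals did not overlap that of Siglech, -6.46 to -5.91.

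Itgax (chromosome 7, 128129526 to 128150657, plus strand) was at 326 and 405 CPM in control and at 384 and 453 CPM in Erg-deficient pre-proB cells, although the gate had left out cells with CD11c, the protein it encodes, on their surface. It was at 3.06 and 5.14 CPM in proB cells and at 1.74 and 1.35 CPM in preB cells. Libraries of the stages did not overlap. The log2 fold change from pre-proB to proB cells, -6.43 (SE 0.190, edgeR adjusted p = 1.97e-08), was the most negative of the 10 and had rank 38 from the lowest among 13650 genes. That from proB to preB cells, -1.41 (SE 0.350, edgeR adjusted p = 0.00837), lost its call without control preB replicate 2, where it was -1.28 (edgeR adjusted p = 0.0641), and lay between -1.73 and -0.99 over the alternatives tried.

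Ly6c2 (chromosome 15, 75108161 to 75112066, minus strand) was at 624 and 754 CPM in control and at 965 and 814 CPM in Erg-deficient pre-proB cells. It was at 12.3 and 18.6 CPM in proB cells and at 3.60 and 4.56 CPM in preB cells, with log2 fold changes of -5.44 (SE 0.187) and -1.91 (SE 0.246) at the successive steps. Its neighbour Ly6c1 is nearly identical: the transcripts Ly6c2-201 and Ly6c1-201 matched at 97.6% of 822 aligned bases, and 15.8% of the 100-base windows of the Ly6c2 transcript also occur in a Ly6c1 transcript. Reads from such stretches could be assigned to either gene, but Ly6c1 was counted at 0.516 CPM or less in all 8 libraries.

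Lair1 (chromosome 7, 4007073 to 4073567, minus strand) was at 670 and 709 CPM in control and at 830 and 812 CPM in Erg-deficient pre-proB cells. It was at 11.3 and 16.1 CPM in proB cells and at 3.02 and 3.27 CPM in preB cells. The log2 fold changes were -5.62 (SE 0.143) and -2.11 (SE 0.199), close to those of Ly6c2, whose 95% intervals they overlapped at both steps.

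**Figure D1:**
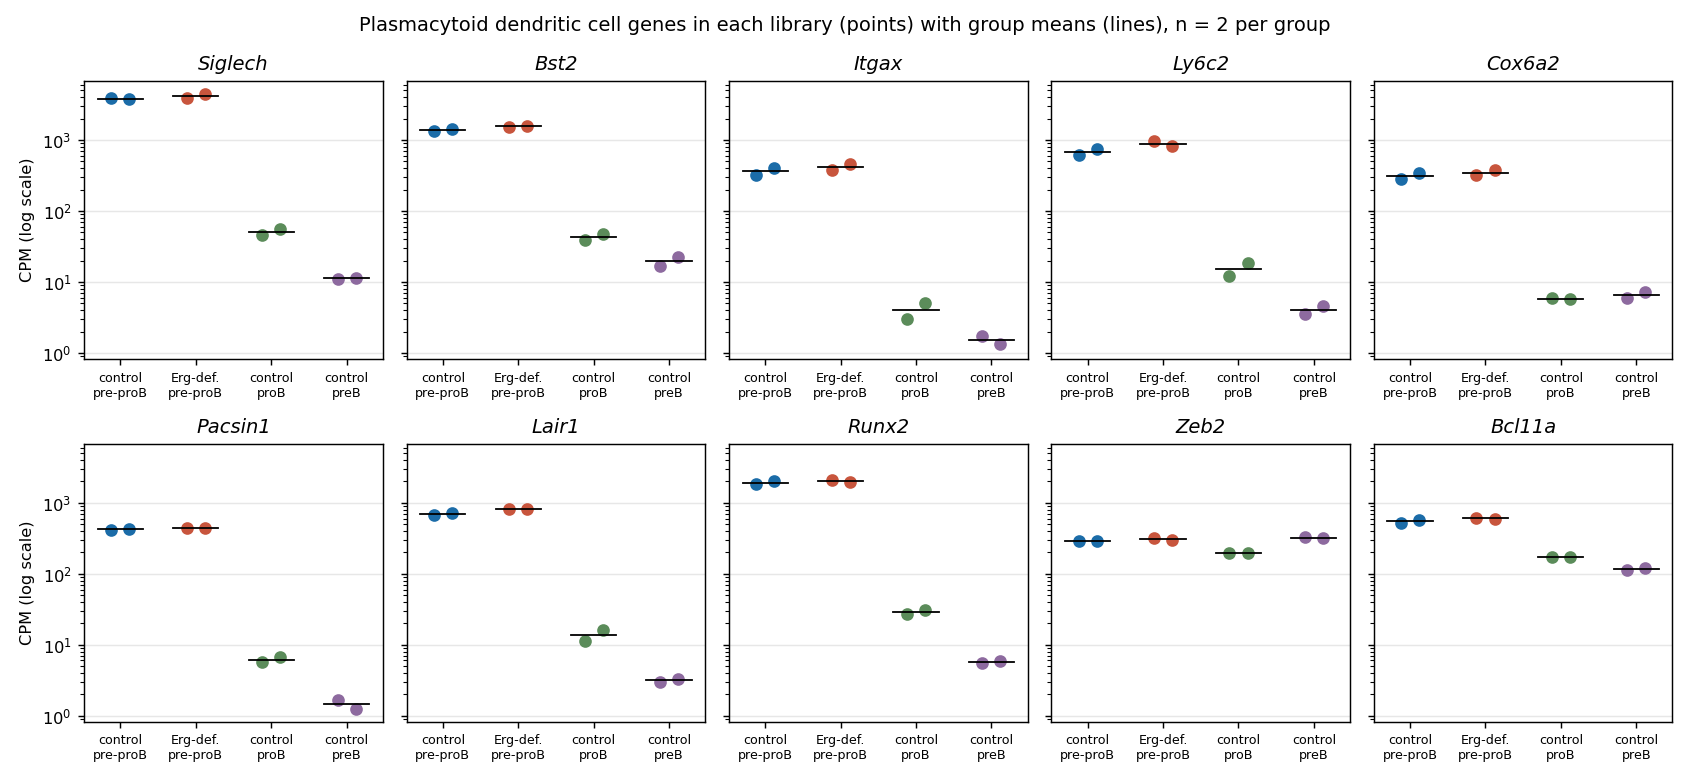
Level of each of the 10 pDC genes in every library, in CPM on a log scale, with 2 libraries (points) and their mean (line) for each of the 4 groups. The levels of 8 genes drop from the pre-proB groups to proB cells, for example Siglech from 3825 CPM or more to 56.5 CPM or less, while Zeb2 stays between 193 and 328 CPM in all 8 libraries.

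Of the genes that act inside the cell, Pacsin1 (chromosome 17, 27655591 to 27711118, plus strand) was at 416 and 431 CPM in control and at 444 and 447 CPM in Erg-deficient pre-proB cells. It was at 5.68 and 6.69 CPM in proB cells and at 1.69 and 1.24 CPM in preB cells. Its log2 fold changes, -6.06 (SE 0.0986) and -2.07 (SE 0.177), were within the intervals of Siglech at both steps, and 0.345% of the pre-proB level was left in preB cells.

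Cox6a2 (chromosome 7, 128205435 to 128206366, minus strand) followed the others only at the first step. It was at 287 and 345 CPM in control and at 322 and 373 CPM in Erg-deficient pre-proB cells. It was at 5.95 and 5.71 CPM in proB cells and at 5.87 and 7.32 CPM in preB cells, where the libraries of the stages overlapped. The log2 fold change was -5.73 (SE 0.132) from pre-proB to proB cells and 0.19 (95% interval -0.22 to 0.60, edgeR adjusted p = 0.389) from proB to preB cells, and the latter changed sign to -0.03 without control preB replicate 2. Of the 8 genes that fell steeply at the first step, each of the other 7 had a second-step interval wholly below that of Cox6a2. Cox6a2 lies 54777 bases from Itgax, and the 3' end of its transcript shares 70 bases with the RefSeq model of Itgad, an integrin gene between them on the opposite strand, while the GENCODE model of Itgad spans all of Cox6a2. Itgad was at 74.9 and 68.3 CPM in control pre-proB, 2.79 and 2.26 CPM in proB and 5.29 and 3.89 CPM in preB cells. Whether reads of the shared bases entered the Cox6a2 counts was not tested.

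Runx2 (chromosome 17, 44495987 to 44814797, minus strand) had the highest level per length of the 3 regulators in pre-proB cells, though the lowest in proB and preB cells, and was at 1813 and 2012 CPM in control and 2093 and 1985 CPM in Erg-deficient pre-proB cells. It was at 26.9 and 31.0 CPM in proB cells and at 5.58 and 5.86 CPM in preB cells. The log2 fold change was -6.01 (SE 0.112, edgeR adjusted p = 4.35e-09) at the first step and -2.33 (SE 0.126, edgeR adjusted p = 4.45e-06) at the second, the most negative second step of the 10. The 5' part of Runx2 shares 37680 bases with Supt3, a gene for a histone acetyltransferase complex subunit, which was at between 5.00 and 21.5 CPM in all 8 libraries.

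Bcl11a (chromosome 11, 24076564 to 24173558, plus strand) declined in smaller steps. It was at 524 and 577 CPM in control and at 607 and 599 CPM in Erg-deficient pre-proB cells, at 175 and 171 CPM in proB cells and at 113 and 122 CPM in preB cells. No 2 stages overlapped. The log2 fold change was -1.63 (SE 0.0764, edgeR adjusted p = 2.27e-07) and then -0.55 (SE 0.0765, edgeR adjusted p = 0.000401), so 21.4% of the pre-proB level was left in preB cells.

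Zeb2 (chromosome 2, 44983512 to 45117442, minus strand) was the only one of the 10 genes called higher at a step. It was at 290 and 293 CPM in control and at 321 and 302 CPM in Erg-deficient pre-proB cells, at 193 and 194 CPM in proB cells and at 328 and 320 CPM in preB cells. The log2 fold change was -0.56 (SE 0.0598, edgeR adjusted p = 3.68e-05) from pre-proB to proB cells and 0.75 (SE 0.0598, edgeR adjusted p = 2.11e-05) from proB to preB cells. Its preB level was above its control pre-proB level by 0.19 on the log2 scale (edgeR adjusted p = 0.0176), but this call was lost in 4 of the alternatives tried, with adjusted p up to 0.186. The antisense RNA Zeb2os shares 2950 bases with Zeb2 and was at 11.6 to 24.1 CPM, and without knowing whether strand was used in counting their reads cannot be told apart there.

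Set against all genes, 10 of 10 were called lower in proB than in control pre-proB cells, where 36.8% of the 13650 genes tested were called lower at an edgeR adjusted p below 0.05. The calls alone therefore say little, and the sizes say more, though the 10 genes were chosen with earlier results of these data known. The median log2 fold change of the 10 was -5.68 and that of all genes 0.00, and 7 of the 10 were below -5, as were 1.72% of all genes. Of the 10, 8 had a mean proB level under 5% of the control pre-proB level, which held for 2.99% of the genes tested. From proB to preB cells 8 of 10 were called lower, against 29.9% of genes, and 1 was called higher, against 29.0%. In preB compared with control pre-proB cells 9 of 10 were called lower, against 34.1% of genes, and 1 higher, against 36.5%, with a median over the 10 of -7.54. The comparisons with pre-proB cells share the control pre-proB libraries and are not independent of each other. In control proB cells, 7 of the 8 steeply falling genes (all but Cox6a2) were higher in replicate 2, the library with the higher neutrophil sum. Without that library the log2 fold changes of the 10 genes lay between -6.90 (Itgax) and -0.60 (Zeb2), and all 10 were called lower.

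**Figure D2:**
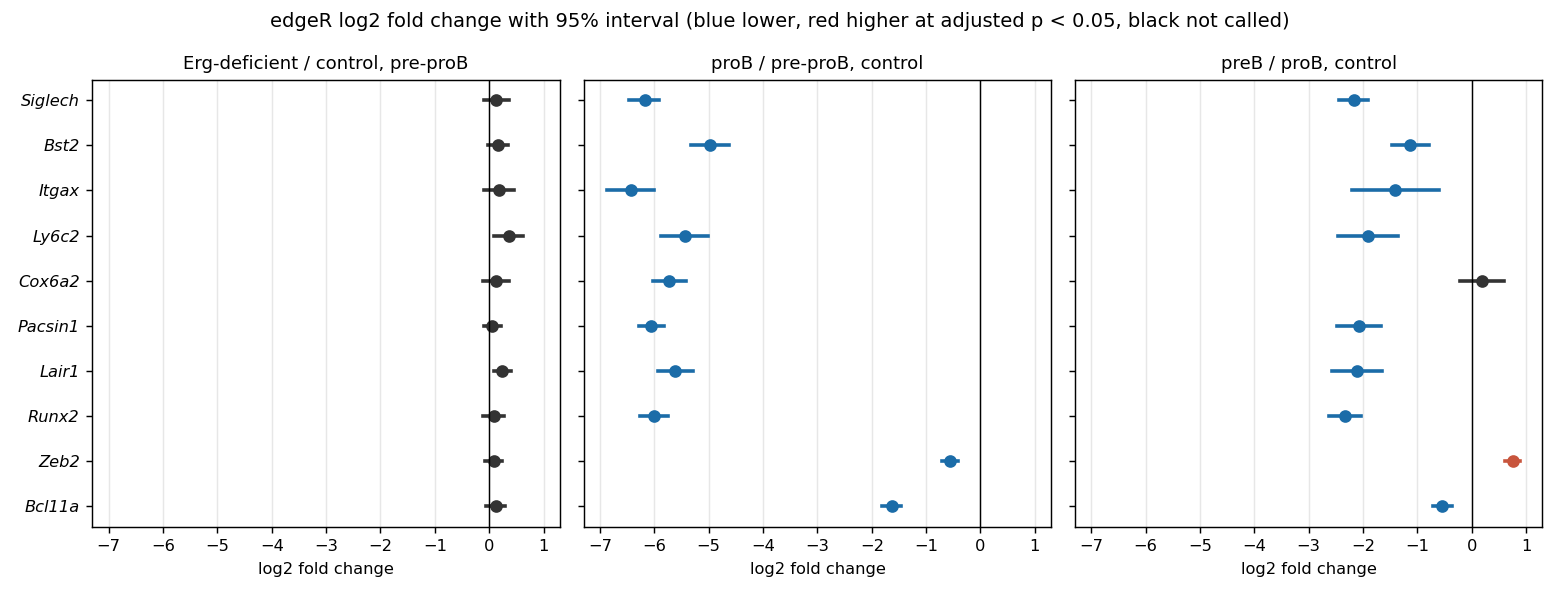
Log2 fold change (points) with its 95% interval (lines) from edgeR for the 10 genes in 3 comparisons: Erg-deficient against control pre-proB cells, proB against pre-proB cells and preB against proB cells. All 10 intervals lie near 0 for genotype (lowest bound -0.12, highest 0.63), whereas at the first stage step 8 genes lie at -4.97 or lower and Zeb2 and Bcl11a lie at -0.56 and -1.63.

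For comparison between genes, CPM was divided by the length of each gene's merged exons in kilobases (called FPKM here). In control pre-proB cells the order was Bst2 at 1539 FPKM, Siglech at 1135, Cox6a2 at 465, Ly6c2 at 252, Runx2 at 216, Lair1 at 92.2, Itgax at 76.1, Pacsin1 at 64.9, Bcl11a at 41.8 and Zeb2 at 14.6 FPKM. The libraries of each gene were apart from those of its neighbour in that order. Bst2 had rank 9 and Siglech rank 17 among the 21567 genes with a length. The order in Erg-deficient pre-proB cells was the same, from Bst2 at 1740 FPKM to Zeb2 at 15.6 FPKM. In preB cells the order had changed: Bst2 at 21.7 FPKM was followed by Zeb2 at 16.2, Cox6a2 at 9.70 and Bcl11a at 8.94 FPKM, the last pair with overlapping libraries, while Siglech stood at 3.36 FPKM and Pacsin1 was lowest at 0.224 FPKM. In proB cells Pacsin1 and Itgax, the lowest pair at 0.948 and 0.854 FPKM, also overlapped.

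In the comparison of genotypes the question was whether deletion of Erg altered these genes in pre-proB cells. None of the 10 passed the threshold with edgeR, where 1.16% of 13005 genes did. An unadjusted p below 0.05 was found for 2 of 10 (Ly6c2 and Lair1), near the 12.5% of all genes. DESeq2 called these 2, where it called 3.08% of all genes, and limma-voom called 0. The estimates were nevertheless all on the positive side, between 0.06 for Pacsin1 and 0.36 for Ly6c2, with a median of 0.13 against 0.01 for all genes. The libraries of the genotypes did not overlap for 7 of 10, each higher in Erg-deficient cells (all but Itgax, Cox6a2 and Runx2), against 23.7% of all genes tested. Ly6c2 had a log2 fold change of 0.36 (95% interval 0.09 to 0.63, edgeR adjusted p = 0.261) and Lair1 one of 0.24 (0.08 to 0.40, edgeR adjusted p = 0.187). For Siglech the interval ran from -0.10 to 0.36, for Itgax from -0.10 to 0.46 and for Runx2 from -0.11 to 0.28. The lowest bound over the 10 genes was -0.12, for Cox6a2.

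Summed over the 10 genes, the level was 10138 and 10799 CPM in control and 11457 and 11895 CPM in Erg-deficient pre-proB cells. Markers of other cell types moved beside this. Of 12 B-lineage genes, 8 were called lower in Erg-deficient cells by edgeR, against 0.946% of all genes, and the summed level went from 3864 and 2838 CPM to 2347 and 2510 CPM, with much of what remained in Ptprc and Il7r. Ebf1, a factor that specifies the B lineage, was at 59.1 and 21.3 CPM in controls and at 0.516 CPM or less without Erg. Of 9 NK-cell genes, 5 were called higher in Erg-deficient cells, against 0.215% of all genes, with sums of 205 and 210 CPM in controls and 268 and 398 CPM without Erg. Most of the control sum was Klrd1, at 174 CPM in both control libraries and 164 and 220 CPM without Erg (log2 fold change 0.13, not called), and the other 8 genes summed to 30.9 and 36.4 CPM in controls and 104 and 178 CPM without Erg. These counts rested on both Erg-deficient libraries, since leaving out either left a single library in that group. Far fewer genes of all kinds were then called, among them fewer B-lineage and NK-cell genes. Such fits therefore say little about these lists in particular. For 9 of the 10 pDC genes (all but Siglech) the lower control library was replicate 1, which also held more B-lineage RNA. The part of these shifts in the small positive estimates was not tested.

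**Figure D3:**
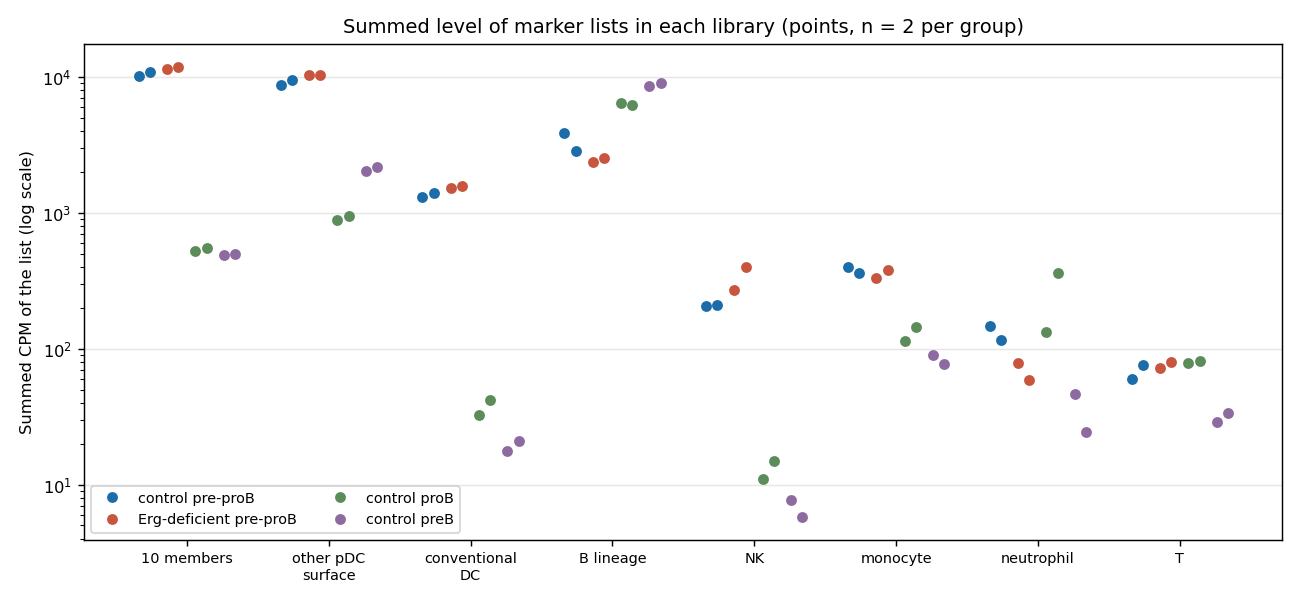
Summed CPM (log scale) of the 10 pDC genes and of lists of marker genes in each library, 2 points per group. The 10 genes sum to between 10138 and 11895 CPM in pre-proB cells of either genotype and to between 491 and 552 CPM in proB and preB cells, and the B-lineage sum is highest in preB cells, at 8485 and 8948 CPM.

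A further 30 genes known in pDCs were examined as 3 lists. In the comparison of genotypes 0 of 30 were called by edgeR, which called 1.16% of all genes (median log2 fold change of the 30, 0.18). With DESeq2, which called 3.08% of all genes, the count was 1 of 7 regulators, 3 of 15 surface and marker genes and 0 of 8 sensing genes. From pre-proB to proB cells 29 of 30 were called lower, against 36.8% of all genes, and none higher, with a median of -3.34. From proB to preB cells 13 of 30 were called higher, against 29.0% of all genes, and 13 lower, against 29.9%.

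Among the 7 other regulators, all were lower in proB than in control pre-proB cells, but to different extents. Tcf4 (E2-2, the E protein on which pDC identity depends) went from 1540 and 1659 CPM to 189 and 185 CPM (log2 fold change -3.06, SE 0.0772). Irf8, a factor of dendritic and B cells, went from 3446 and 3982 CPM to 196 and 210 CPM (-4.16, SE 0.105), and Irf7, the factor for type I interferon genes, from 283 and 365 CPM to 12.2 and 14.7 CPM (-4.55, SE 0.202). Spib, an ETS factor shared by pDCs and B cells, fell by only 0.81 and then rose by 1.67, reaching 2368 and 2378 CPM in preB cells, 176% of the control pre-proB level. Tcf12 and Cbfa2t3 also rose from proB to preB cells, by 0.68 and 0.98. Tcf4 fell a little further there, by 0.19, while Irf8, Irf7 and Id2 were not called (0.04, -0.48 and 0.45). Id2, which antagonises E proteins, was low throughout, at 11.9 and 15.4 CPM in control and 19.7 and 31.5 CPM in Erg-deficient pre-proB cells (log2 fold change 0.90, edgeR adjusted p = 0.158).

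Of the 8 genes of nucleic acid sensing, 7 were lower in proB than in pre-proB cells, all but Traf3 (-0.19, edgeR adjusted p = 0.0622). Tlr7, the endosomal receptor for single-stranded RNA, went from 322 and 365 CPM to 8.08 and 10.4 CPM (-5.17, SE 0.133) and declined again in preB cells, to 3.26 and 4.34 CPM. Tlr9, the receptor for unmethylated CpG DNA, went from 250 and 287 CPM to 24.4 and 21.7 CPM and then rose to 64.9 and 68.6 CPM in preB cells (1.54, SE 0.0959). Unc93b1, which carries both receptors to the endosome, likewise went from 1237 and 1298 CPM to 413 and 398 CPM and back to 797 and 827 CPM. Pld4, Myd88, Slc15a4, Irak4 and Traf3 were also called higher in preB than in proB cells, by 0.24 to 1.01 on the log2 scale, which made 7 of 8 higher at this step, against 29.0% of all genes.

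All 15 other surface and marker genes were lower in proB than in pre-proB cells, with a median log2 fold change of -5.69, close to the -5.68 of the 10 genes. Of the 15, 10 stood under 5% of the pre-proB level in proB cells, as did 2.99% of all genes tested. Ccr9, the receptor for the gut-homing chemokine CCL25, went from 1040 and 1201 CPM to 13.5 and 18.6 CPM and then to 4.42 and 5.13 CPM. Cd300c, Lag3, Klk1, Klk1b27, Cd209d, Lifr and Smim5 behaved similarly, each at 1.87% or less of its pre-proB level in proB cells and lower still in preB cells. Flt3, the growth factor receptor of early progenitors and dendritic cells, went from 502 and 580 CPM to 20.7 and 27.6 CPM and to 2.50 and 4.06 CPM. Ptprs was also lower at both steps, and Il3ra only at the first. Atp1b1, Rnase6 and Ly6d, the last a surface antigen that marks B-biased progenitors, rose from proB to preB cells by 1.81, 1.75 and 1.99, and Atp1b1 reached 1285 and 1293 CPM, above its control pre-proB level of 956 and 959 CPM.

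**Figure D4:**
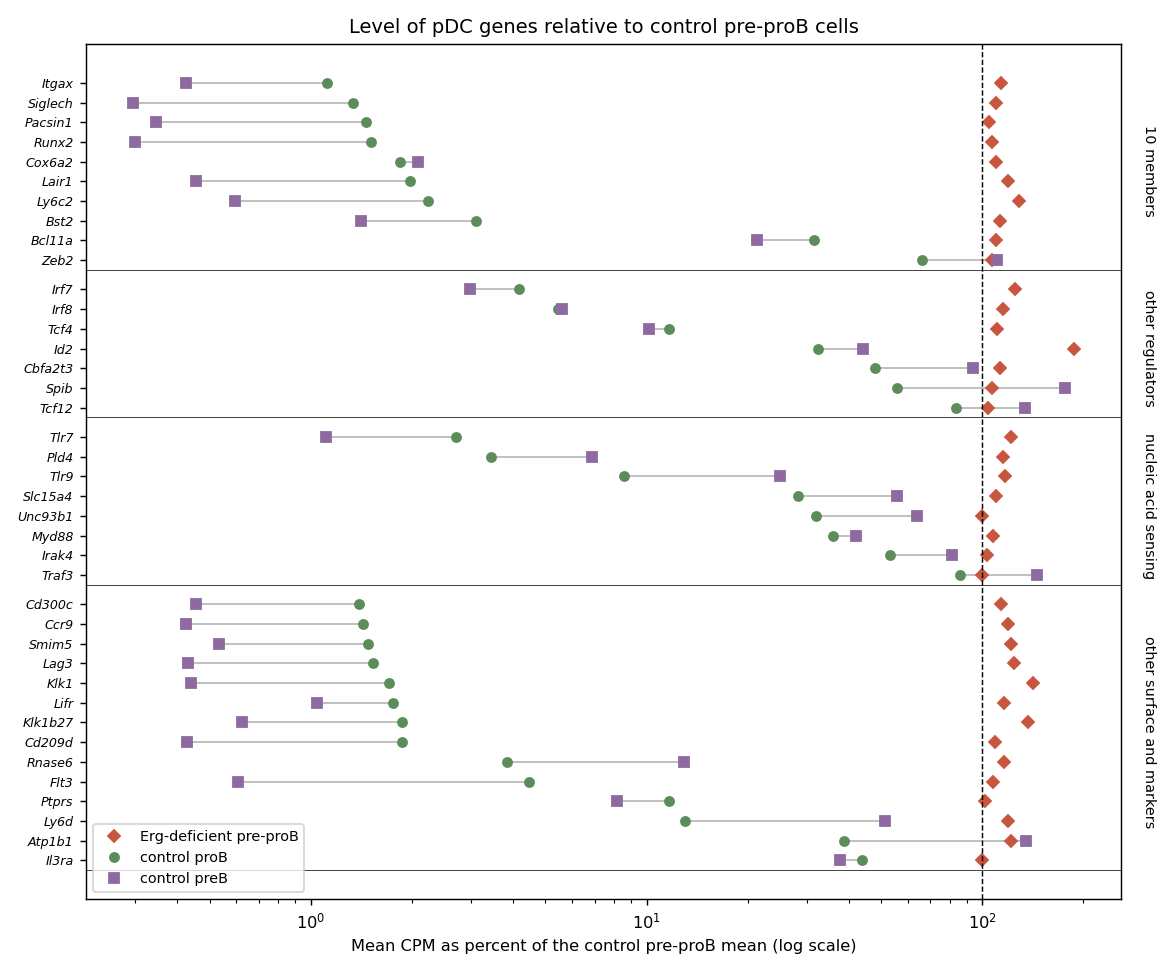
Mean CPM of the 10 genes and of 29 other pDC genes as a percent of the control pre-proB mean (dashed line, 100%; log scale), for pre-proB cells without Erg and for control proB and preB cells. Most of the 10 and of the other surface and marker genes lie under 5% in proB and preB cells, whereas Zeb2, Spib, Tcf12, Traf3 and Atp1b1 lie above 100% in preB cells.

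Lists of other cell types that the gate could hold were read beside these results. The conventional dendritic cell list summed to 1301 and 1390 CPM in control and to 1531 and 1578 CPM in Erg-deficient pre-proB cells, and to 41.9 CPM or less in proB and preB cells. Most of that sum came from Sirpa, Clec10a, Clec9a and Cd209a. Zbtb46, Xcr1 and Batf3, of the same list but picked after their values were seen, were at 2.25, 1.28 and 0.547 CPM or less in the pre-proB libraries. From pre-proB to proB cells 6 of the 7 genes tested were called lower, against 36.8% of all genes, and 1 higher, against 4937 of 13650. The latter was Cd83, which went from 2.05 and 0.972 CPM in control pre-proB cells to 3.50 and 3.70 CPM. In preB cells Cd83 was at 8.84 and 12.8 CPM. The monocyte list of 9 genes summed to between 330 and 401 CPM in the pre-proB libraries and to 143 CPM or less later, with Cd14 and Fcgr1 at 1.42 and 0.875 CPM or less. Ccr2, a chemokine receptor, made up much of that sum, at 204 and 170 CPM in control and 164 and 231 CPM in Erg-deficient pre-proB cells. Lyz2 and F13a1 went the other way in controls and were called higher in proB than in pre-proB cells, by 0.80 and 0.85 on the log2 scale. Of the 8 monocyte genes tested at this step, 5 were called lower, against 36.8% of all genes, and 2 higher, against 4937 of 13650. The T-cell list of 7 genes summed to between 28.9 and 81.4 CPM in all 8 libraries. Most of that sum was Lck, at 37.8 and 47.0 CPM in control pre-proB and 74.4 and 78.4 CPM in proB cells. From pre-proB to proB cells 5 of the 7 genes were called lower, against 36.8% of all genes, and 1 higher, against 4937 of 13650. Cd3e, for example, went from 4.94 and 6.50 CPM to 0.164 and 0.154 CPM. The plasma cell list of 5 genes summed to between 636 and 739 CPM in the pre-proB libraries and to between 298 and 518 CPM later. Xbp1 went from 408 and 485 CPM in control pre-proB cells to 64.3 and 72.6 CPM in proB cells. The list did not move as 1, since 3 of the 5 genes were called higher at this step and 2 lower. Of all 13650 genes, 4937 were called higher and 5024 lower. Jchain, for example, went from 96.5 and 106 CPM to 210 and 200 CPM. The neutrophil list summed to 146 and 115 CPM in control and 78.9 and 58.5 CPM in Erg-deficient pre-proB cells. There 2 of 7 genes (S100a9 and Ngp) were called lower, against 0.946% of all genes. These calls were lost without either Erg-deficient library, where a single library was left in the group and far fewer genes of all kinds were called. The 10 interferon-stimulated genes, Irf7 among them, summed to 962 and 1261 CPM in control and to 1666 and 1041 CPM in Erg-deficient pre-proB cells. In that comparison 0 of 10 were called, against 1.16% of all genes, so the count says little. Their median log2 fold change was 0.40. The part of these cells in the results was not tested.

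The pattern of Siglech over the 8 libraries was then compared with that of other genes, by Pearson's r of log2(CPM + 0.5), as a description only. The 8 non-member genes most like it, of 10757 with at least 5 CPM in 2 libraries, were Chdh (choline dehydrogenase), Fyb (an adaptor of immune-cell adhesion), Cln8, Ccdc122, Zyx (a focal adhesion protein), Itgal (the CD11a integrin chain), Golm1 and Mpeg1 (perforin-2), with r from 0.9998 to 0.9994. Chdh had means of 470 CPM in control pre-proB, 7.61 in proB, 1.43 in preB and 517 CPM in Erg-deficient pre-proB cells. Mpeg1 had means of 6726, 102, 29.0 and 7737 CPM in the same order. High values of r are common in these data, since the 8 libraries form 4 groups of which the pre-proB groups stand far from the others, and 468 genes reached 0.99. Within the 10 genes, r with Siglech was between 0.995 and 1.000 for Bst2, Itgax, Ly6c2, Pacsin1, Lair1, Runx2 and Bcl11a, and was 0.975 for Cox6a2 and 0.264 for Zeb2. A high r thus did not mean an equal size of change: Bcl11a, at 0.998, retained 21.4% of its pre-proB level in preB cells and Siglech 0.296%.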

How the data were processed

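Bone marrow populations of control and Erg-deficient mice were sorted and mRNA libraries sequenced as 100-base paired reads. The authors trimmed reads with Trim Galore, aligned them to mm10 with STAR and counted them per Entrez gene with featureCounts. The submitters' processing notes also name CASAVA 1.8.2. Whether counting used strand, and how multiply mapped reads were treated, is not stated in these sources. The deposited values are raw counts per gene for 8 libraries, with no normalization.

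Entrez identifiers were matched to RefSeq symbols (25275) or GENCODE symbols (18); 1886 had none and held 0.571% of counts. Gene positions came from RefSeq on GRCm38, and strands and exon lengths from GENCODE (vM21). Counts were tested with edgeR 4.0.16 in R 4.3.3, by quasi-likelihood F-tests (two-sided) with trimmed mean of M-values normalization, after a filter on low counts (0.5 CPM or more in 2 or more of the fitted libraries), and called at a Benjamini-Hochberg adjusted p below 0.05 over all genes kept. The genotype fit used the 4 pre-proB libraries and the stage fit the 6 control libraries, without a replicate term. Intervals are 95% intervals of the log2 fold change. Replicates within groups differed by more than sampling noise (chi-square per degree of freedom 3.82 to 8.29) and, per the study's methods, were sorted from 2 mice of each genotype; which mouse a replicate number marks is not stated. The scripts were tested on simulated data. The alternatives tried were other size factors, filters and tests (DESeq2 1.42.0, limma-voom 3.58.1), a replicate block, 1 fit of all 8 libraries and leaving out each library.

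The genes and lists were chosen with earlier results of these data known. The text names all 10 genes and called genes of the 3 other pDC lists (with others of those lists where the call is stated as missing). It names a few genes of other lists, chosen by level or call, together with markers at or near 0 that were picked after their values were seen. Also named are Erg as the label check, the 8 genes most like Siglech, and overlapping or near-identical genes. Some genes of the lists enter the counts and sums and are not reported here by name.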

Additional observations from a re-analysis of the deposited data

How the results depend on the processing

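Over 580 alternative values for the 10 genes, 572 kept their direction and their side of the threshold. With DESeq2, 2 of the 10 genes were called between genotypes (Ly6c2, adjusted p = 0.0463, and Lair1, adjusted p = 0.0152), in place of 0. Without 1 library in turn the number called was 0 to 0 for genotype, 10 to 10 for proB against pre-proB cells, 8 to 9 for preB against proB cells and 9 to 10 for preB against pre-proB cells. The lost calls were Itgax without control preB replicate 2 (-1.28) and Zeb2 in preB against pre-proB cells with no filter (0.14), without control pre-proB replicate 1 (0.12) or 2 (0.17) and without control proB replicate 2 (0.15). Cox6a2 ranged from -0.03 to 0.34 in preB against proB cells without 1 library, the former without control preB replicate 2 (adjusted p = 0.92). The causes were not tested.

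The methods give 2 mice of each genotype, so control stages may share mice, but do not tie replicate numbers to them. Correlations of deviations between same-numbered libraries were -0.035 to 0.15 between groups (highest for control pre-proB and proB cells). With 2 libraries a group, such values cannot decide whether the numbers mark mice. With the replicate block the number of the 10 genes called was 0, 10, 9 and 10 in the same order of comparisons. The number of all genes called between genotypes moved more: from 151 to 265 with the block, 442 with all 8 libraries in 1 fit, 400 with DESeq2, 88 with edgeR's version 4 method, 41 with limma-voom, 279 with no filter, and 10 to 401 without 1 library, lowest without an Erg-deficient library. Between genotypes the B-lineage genes called ranged from 0 to 9 of 12, NK genes from 0 to 7 of 9 and neutrophil genes from 0 to 4 of 7 over all alternatives, and without either Erg-deficient library no B-lineage gene was called. With 2 libraries a group, changes in the size of the genotype estimates could not be resolved from the spread.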
